A study of Mus musculus with 12 samples.

Results

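The genes described here encode 2 groups of small intracellular protease inhibitors that mouse skin makes: the Serpinb3 serpins and the stefin A cystatins. They were taken by name, as the rows of a periocular skin count table whose gene symbol is Serpinb3a, Serpinb3b, Serpinb3c, Serpinb3d, Stfa1, Stfa2, Stfa3 or Stfa2l1. Of these 8 symbols, 7 had a row among the 21247 genes of the table, and Serpinb3c was not analysed here. All 7 passed the filter of at least 10 counts summed over the libraries, which 20454 genes passed.

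The study asked what loss of the adaptor MyD88 does to skin that already lacks filaggrin, a structural protein of the cornified layer. RNA from the skin around the eye was sequenced in 4 libraries of ft/ft mice and 4 libraries of ft/ftMyD88-/- mice, all 6 weeks old, on a BALB/c background and female by the labels. Both groups carried the spontaneous loss-of-function point mutation of filaggrin, bred free of the matted (ma) mutation by the study's methods, and the second group was made by crossing these mice with MyD88-/- mice, a knockout not limited to a tissue. There is therefore no group here that lacks MyD88 alone, and 4 wild-type samples named by the labels were not analysed here.

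Serpins of clade B act inside cells. They trap a protease by offering an exposed loop as bait, and cleavage of that loop locks the enzyme in a dead complex. The Serpinb3 proteins, the mouse counterparts of the human squamous cell carcinoma antigens, are unusual in this family because several of them block cysteine proteases of the papain type as well as serine proteases. Stefins work differently: they are short proteins that plug the active site of papain-type cathepsins reversibly, with a conserved hairpin loop as part of the wedge. The mouse carries a cluster of stefin A copies where humans have a single gene, and these copies are best known from neutrophils and other myeloid cells and from inflamed or thickened epidermis.

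The Serpinb3 genes lie on the minus strand of chromosome 1 (GRCm38, GENCODE M21 gene models): Serpinb3a at chr1:107045587-107052303, Serpinb3d at chr1:107078167-107083506, Serpinb3b at chr1:107153940-107278361 and Serpinb3c at chr1:107271201-107278371. The stefin A genes lie on chromosome 16, with Stfa2l1 at chr16:36156811-36161953 and Stfa1 at chr16:36276951-36285373 on the plus strand, and Stfa2 at chr16:36403992-36408457 and Stfa3 at chr16:36450537-36455392 on the minus strand. The sequences below show where the copies differ in the part that meets the protease, and how alike the genes are that the reads had to be told apart from. For the serpins this is the coding stretch from the hinge of the reactive loop to the conserved block behind it (coding bases 1006 to 1098, counted from 1 at the start codon, all exonic, GENCODE M21 on GRCm38), with capitals where a base differs from Serpinb3a.
Serpinb3a: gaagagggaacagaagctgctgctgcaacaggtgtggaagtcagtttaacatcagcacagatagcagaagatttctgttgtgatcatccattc
Serpinb3b: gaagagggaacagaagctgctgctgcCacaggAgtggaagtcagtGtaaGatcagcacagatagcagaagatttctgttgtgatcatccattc
Serpinb3d: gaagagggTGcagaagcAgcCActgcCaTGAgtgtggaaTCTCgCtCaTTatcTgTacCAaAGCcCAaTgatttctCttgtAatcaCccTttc

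Over these 93 bases Serpinb3b differed from Serpinb3a at 4 positions, and 2 of the 31 codons encoded another residue. Serpinb3d differed at 31 positions, and 15 codons encoded another residue. Over the whole coding sequence of 1161 bases Serpinb3a was 92.9% identical to Serpinb3b and 89.4% identical to Serpinb3d.

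For the stefins the stretch is the part of the coding sequence that holds the conserved hairpin loop (coding bases 109 to 198, and 91 to 180 in Stfa1, same source), with capitals where a base differs from Stfa3.
Stfa3: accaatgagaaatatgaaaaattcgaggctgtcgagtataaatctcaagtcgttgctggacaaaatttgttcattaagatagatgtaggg
Stfa2: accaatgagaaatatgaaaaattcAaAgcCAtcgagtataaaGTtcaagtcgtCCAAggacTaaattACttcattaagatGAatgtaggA
Stfa2l1: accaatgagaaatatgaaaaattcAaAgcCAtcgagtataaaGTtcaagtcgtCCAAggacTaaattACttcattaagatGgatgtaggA
Stfa1: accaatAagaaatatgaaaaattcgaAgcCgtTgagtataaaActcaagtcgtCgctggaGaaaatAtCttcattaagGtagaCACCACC

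The loop motif was found in all 4 stefins. Over these 90 bases Stfa2 differed from Stfa3 at 16 positions, Stfa2l1 at 15 and Stfa1 at 17. Stfa2 and Stfa2l1 are near copies of each other, with 96.4% identity over the coding sequence of 309 bases, whereas Stfa3 was 80.9% identical to Stfa2 and 81.6% identical to Stfa2l1.

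How far reads can separate these genes was measured as the share of all 50-base stretches of a gene's transcripts that also occur in a transcript of another gene, 50 bases being the read length. For Stfa3 the share was 0 of 363 stretches. It was 15% for Serpinb3a, of which 5.31% of its stretches were shared with Serpinb3b and 9.8% with Gm8080, and 14.7% for Serpinb3b, with 7.61% shared with Serpinb3c. The share was 13.4% for Serpinb3d, 22.5% for Stfa1, 15.9% for Stfa2 and 24.6% for Stfa2l1. The gene model of Serpinb3b reaches into Serpinb3c and overlaps 35 of its 1659 exonic bases. The values of all members other than Stfa3 therefore carry an uncertainty from reads of near copies. Only exact matches between annotated transcripts were counted, so a share of 0 does not show that Stfa3 is free of such reads. The reference is C57BL/6J whereas the mice were BALB/c. Whether any of this moved a value was not tested.

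The deposited counts summed to 18941705 to 29255129 per ft/ft library and 15802957 to 27037997 per ft/ftMyD88-/- library. Values are given as CPM, each gene's counts relative to the library total, scaled by TMM, a method that sets the bulk of genes level between libraries, and its factors were 0.922 to 0.954 for ft/ft and 1.04 to 1.09 for ft/ftMyD88-/- libraries. The median log2 fold change over all genes tested was 0.01 with this scaling and 0.19 with library size alone, so a change is read relative to the bulk of genes. A count of 3, the limit that a count of 0 allows, stands for 0.102 to 0.183 CPM. Myd88 itself had 25.4 to 36.5 CPM in ft/ft and 32.2 to 48.8 CPM in ft/ftMyD88-/- (log2 fold change 0.42, adjusted p = 0.0484), so its count does not fall with the label, and a count over the whole gene cannot show a deleted exon. Flg, the filaggrin gene that both groups carry mutated, had 48.3 to 199 and 191 to 273 CPM (adjusted p = 0.12), and Tmem79, the gene of the matted mutation, 55.4 to 62 and 13.8 to 18.8 CPM (adjusted p = 5.08e-07). Why Tmem79 was lower in ft/ftMyD88-/- was not tested, and this difference cannot be told apart from the MyD88 genotype in any result below. The female transcript Xist had 0 to 0.0429 CPM in the ft/ft libraries and 34.6 to 66.8 CPM in the ft/ftMyD88-/- libraries, while the sum of 4 Y-linked transcripts was 132 to 164 CPM and 0 to 1.31 CPM. These values go against the label of female mice in ft/ft, and sex and genotype cannot be told apart in any result below. The study describes 4 mice a group, so the spread between libraries is taken as that between mice.

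Of the 7 members tested, 5 were higher in ft/ftMyD88-/- skin and none was lower at an adjusted p under 0.05 (quasi-likelihood test of edgeR, Benjamini-Hochberg adjustment over all genes tested). The 5 were Serpinb3b, Serpinb3d, Stfa1, Stfa2 and Stfa3, and the 2 that did not pass were Serpinb3a and Stfa2l1. DESeq2 and limma voom also called 5 higher and 0 lower. At an adjusted p under 0.05, edgeR called 10.9% of all genes tested higher and 12.3% lower, 23.3% in either direction. At an unadjusted p under 0.05, 6 members were higher and 1, Serpinb3a, was lower. The share of all genes at that unadjusted threshold is not given here, so this count has nothing to be set beside. The median log2 fold change of the 7 members was 1.70, beside 0.01 over all genes. In 4 members every ft/ftMyD88-/- library lay above every ft/ft library, which held for 12.5% of all genes tested. Serpinb3d, Stfa1 and Stfa2l1 had a mean of fewer than 50 counts per library.

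**Figure D1:**
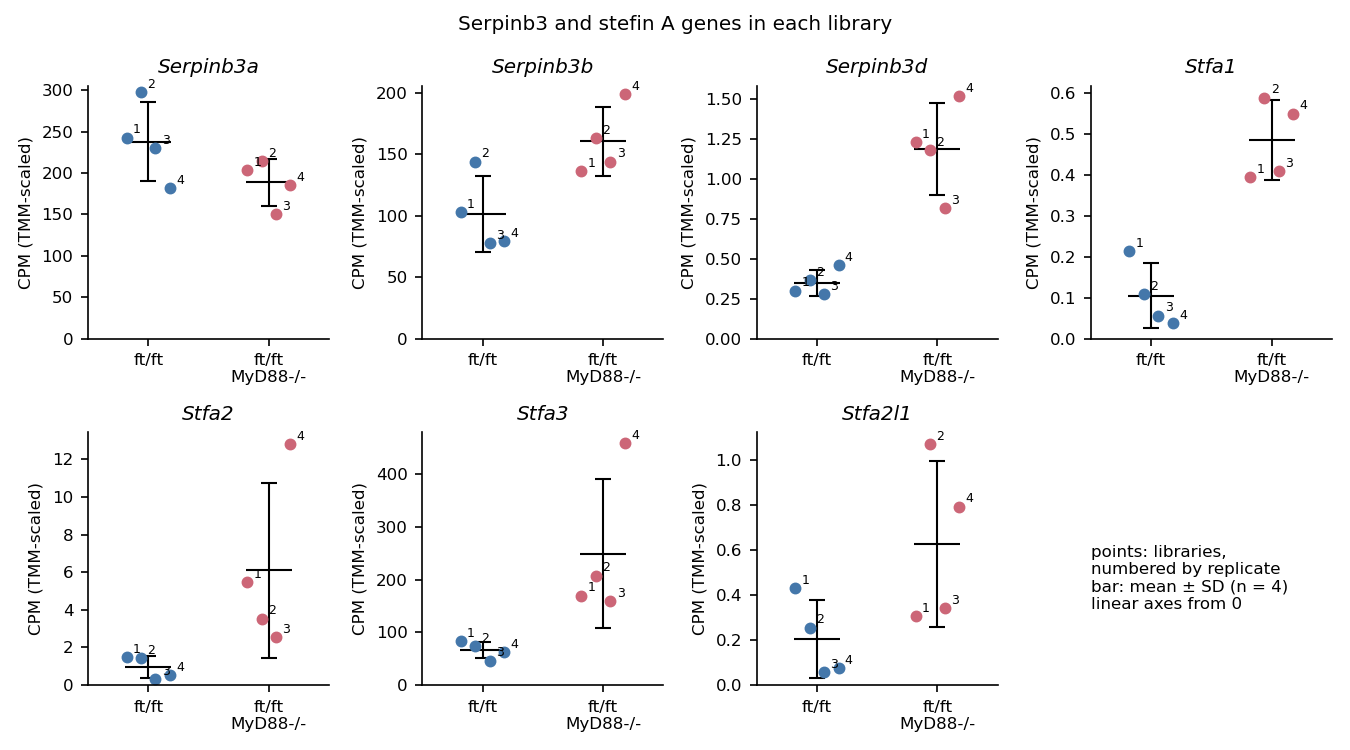
CPM (TMM-scaled, linear axes from 0) of each gene in the 4 ft/ft and the 4 ft/ftMyD88-/- libraries, with points numbered by replicate and bars for the mean ± SD. The groups do not overlap in Serpinb3d, Stfa1, Stfa2 and Stfa3, whereas Serpinb3a lies at 182 to 298 CPM in ft/ft and 150 to 215 CPM in ft/ftMyD88-/-.

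Among the serpins the balance between close copies differed between the groups, while no difference in their summed level was detected. Serpinb3a, which inhibits cysteine and serine proteases, was the most abundant of the 3 Serpinb3 rows in ft/ft skin. Its level was 243, 298, 230 and 182 CPM in the ft/ft libraries and 204, 215, 150 and 186 CPM in the ft/ftMyD88-/- libraries. The groups overlapped, with ft/ft replicate 2 highest and ft/ftMyD88-/- replicate 3 lowest. The log2 fold change was -0.34 (SE 0.149, adjusted p = 0.124), with means of 238 ± 47.4 and 189 ± 28.5 CPM (SD, n = 4 each). Without ft/ft replicate 4, the lowest of its group, the log2 fold change was -0.45 and the adjusted p, 0.05 after rounding, was just past the threshold.

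Serpinb3b, also an inhibitor of both protease classes, went the other way. It had 103, 144, 77.9 and 79.6 CPM in the ft/ft libraries and 136, 163, 144 and 199 CPM in the ft/ftMyD88-/- libraries. The highest ft/ft library, replicate 2, lay among the ft/ftMyD88-/- libraries, so the groups overlapped. The mean was 101 ± 31.0 CPM in ft/ft and 160 ± 28.0 CPM in ft/ftMyD88-/- (SD, n = 4 each), a 1.58-fold difference (log2 fold change 0.66, SE 0.203, adjusted p = 0.0423). A two-sided exact permutation test on the means gave p = 0.0857 and did not pass 0.05. The edgeR call depended on 5 of the 8 libraries. It was kept without ft/ft replicate 2 (0.88, adjusted p = 0.00283), ft/ftMyD88-/- replicate 1 (0.74, adjusted p = 0.0467) or replicate 3 (0.73, adjusted p = 0.0469). It was lost without ft/ft replicate 1 (0.67, adjusted p = 0.0939), replicate 3 (0.56, adjusted p = 0.0892) or replicate 4 (0.56, adjusted p = 0.093), and without ft/ftMyD88-/- replicate 2 (0.66, adjusted p = 0.0772) or replicate 4 (0.55, adjusted p = 0.104).

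The ratio of Serpinb3b to Serpinb3a counts within a library does not depend on scaling. It was 0.424, 0.485, 0.338 and 0.437 in the ft/ft libraries and 0.667, 0.758, 0.96 and 1.07 in the ft/ftMyD88-/- libraries. Every ft/ftMyD88-/- library had a higher ratio than every ft/ft library, and in replicate 4 the counts of Serpinb3b exceeded those of Serpinb3a. Among single genes tested, 12.5% had every ft/ftMyD88-/- library above every ft/ft library, and 14.2% had every one below. No such share is given here for ratios of 2 genes. The mean ratio rose from 0.421 ± 0.0613 to 0.863 ± 0.183 (SD, n = 4 each), 2.03-fold on the mean of the log ratios (two-sided exact permutation p = 0.0286, the smallest that 4 against 4 libraries allow). The difference on the log2 scale was 1.02, and between 0.91 and 1.14 with any library left out. Serpinb3b made up 29.5 ± 3.1% of the Serpinb3 counts in ft/ft and 45.8 ± 5.29% in ft/ftMyD88-/- (SD, n = 4 each). Reads of Serpinb3c that fell to either row would enter this ratio, and their part was not tested.

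**Figure D2:**
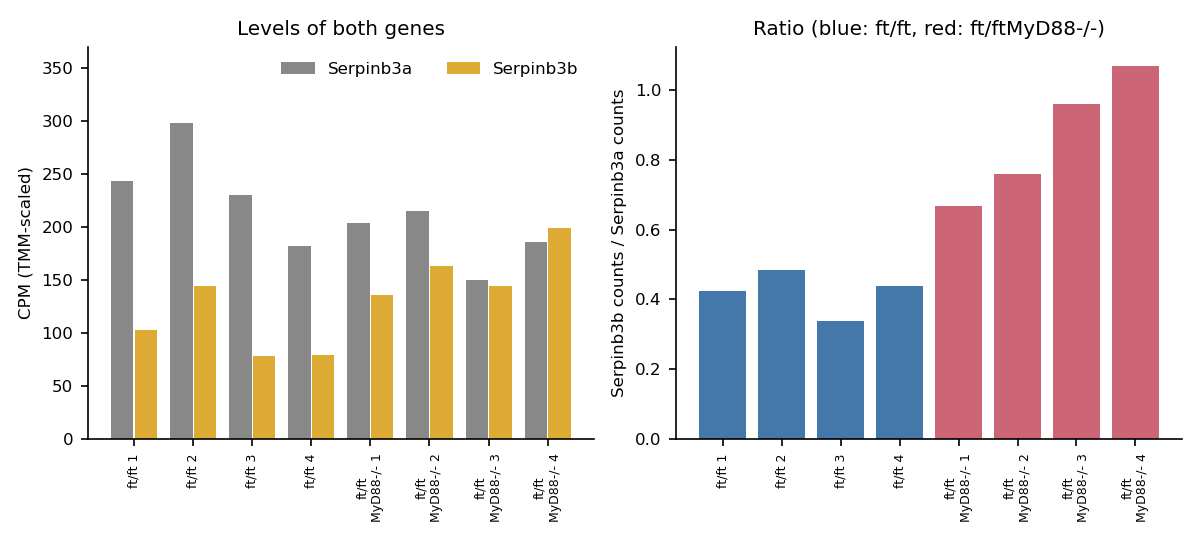
Left, CPM (TMM-scaled) of Serpinb3a and Serpinb3b side by side in each of the 8 libraries; right, the ratio of Serpinb3b counts to Serpinb3a counts in the same libraries (bars from 0). The ft/ft bars end at 0.338 to 0.485 and the ft/ftMyD88-/- bars at 0.667 to 1.07.

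Serpinb3d, a further copy with a different reactive loop, was barely detected. It had 7, 10, 5 and 12 counts in the ft/ft libraries and 28, 32, 24 and 25 counts in the ft/ftMyD88-/- libraries, and the groups did not overlap. The means were 0.351 ± 0.0814 and 1.19 ± 0.29 CPM (SD, n = 4 each), a 3.26-fold difference (log2 fold change 1.70, SE 0.309, adjusted p = 0.00244). The ratio of the depth-scaled group sums, 34 against 109 counts, was 3.17 with a 95% exact interval of 2.14 to 4.81, which covers counting error only. Serpinb3d held 0.104% of the Serpinb3 counts in ft/ft and 0.329% in ft/ftMyD88-/-, so this change added little to the summed level. The call was kept in each of the 15 alternative fits, with log2 fold changes from 1.59 to 1.88.

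Summed, the 3 Serpinb3 rows had 347, 442, 309 and 262 CPM in the ft/ft libraries and 341, 379, 294 and 387 CPM in the ft/ftMyD88-/- libraries. The groups overlapped over most of their range. The means were 340 ± 76.5 and 350 ± 42.3 CPM (SD, n = 4 each), and no difference was detected (log2 fold change 0.04, SE 0.149, adjusted p = 0.865). The sign is not fixed: without ft/ft replicate 4 the value was -0.06.

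Among the 4 Stfa rows, Stfa3 carried nearly all counts and rose with no overlap between the groups. It is a cathepsin inhibitor like the other stefin A copies. Its level was 83.2, 73.9, 46.4 and 63.3 CPM in the ft/ft libraries and 170, 208, 160 and 459 CPM in the ft/ftMyD88-/- libraries. Replicate 4 stood far above the other ft/ftMyD88-/- libraries, yet the lowest of them, at 160 CPM, was still above the highest ft/ft library. The mean rose from 66.7 ± 15.8 to 249 ± 142 CPM (SD, n = 4 each), 3.73-fold (log2 fold change 1.90, SE 0.401, adjusted p = 0.0163). The exact permutation test on the means gave a two-sided p of 0.0286. Without replicate 4 the log2 fold change was 1.44 (adjusted p = 0.00161), and the call was kept in all 15 alternative fits.

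Stfa2 showed the highest fitted fold change of the members, at a low level. It had 1.5, 1.42, 0.335 and 0.537 CPM in the ft/ft libraries and 5.48, 3.53, 2.55 and 12.8 CPM in the ft/ftMyD88-/- libraries. The ft/ft libraries themselves differed several-fold, with replicate 3 at 6 counts and replicate 2 at 39, and the groups did not overlap. The means were 0.948 ± 0.598 and 6.09 ± 4.64 CPM (SD, n = 4 each), a 6.14-fold difference (log2 fold change 2.62, SE 0.652, adjusted p = 0.0244). The call was lost without ft/ft replicate 3 (2.38, adjusted p = 0.0556), ft/ft replicate 4 (2.41, adjusted p = 0.0713) or ft/ftMyD88-/- replicate 1 (2.66, adjusted p = 0.052), and without ft/ftMyD88-/- replicate 4 the value was 2.00.

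Stfa1 was close to the limit of detection. The ft/ft libraries held 5, 3, 1 and 1 counts and the ft/ftMyD88-/- libraries 9, 16, 12 and 9 counts, with no overlap. The fitted log2 fold change was 2.14 (SE 0.503, adjusted p = 0.0096), kept in all 15 alternative fits. In 3 of the ft/ft libraries the count was at or under the floor of 3 counts, and the ratio of the depth-scaled sums, 10 against 46 counts, was 4.55 with an exact interval of 2.27 to 10.1. Of all 50-base stretches of Stfa1, 19.4% also occur in BC100530, a neighbouring stefin A copy.

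Stfa2l1, the near copy of Stfa2, did not pass the test. Its counts were 10, 7, 1 and 2 in the ft/ft libraries and 7, 29, 10 and 13 in the ft/ftMyD88-/- libraries. The groups overlapped, since ft/ft replicate 1 at 0.429 CPM was above ft/ftMyD88-/- replicates 1 and 3 at 0.307 and 0.34 CPM. The log2 fold change was 1.55 (SE 0.599, adjusted p = 0.0808), and the ratio of the depth-scaled sums was 2.92 with an exact interval of 1.73 to 5.12. It passed the threshold without ft/ft replicate 1 (2.14, adjusted p = 0.043) and with library size as the only scaling (1.73, adjusted p = 0.0469).

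Summed over the 4 Stfa rows, the level was 85.3, 75.7, 46.8 and 64.0 CPM in the ft/ft libraries and 176, 213, 163 and 474 CPM in the ft/ftMyD88-/- libraries. Stefin A copies outside these rows, such as Csta1, are not in this sum. The sum rose 3.77-fold with no overlap between the groups (log2 fold change 1.91, SE 0.405, adjusted p = 0.0166), and without ft/ft replicate 4 it was 1.89 with an adjusted p of 0.0507. Stfa3 made up 98.3 ± 0.839% of the counts of these 4 rows in ft/ft and 97.3 ± 0.649% in ft/ftMyD88-/- (SD, n = 4 each, two-sided exact permutation p = 0.143). The sum is thus a measure of Stfa3, and the makeup of the counts of the 4 Stfa rows was not shown to differ.

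**Figure D3:**
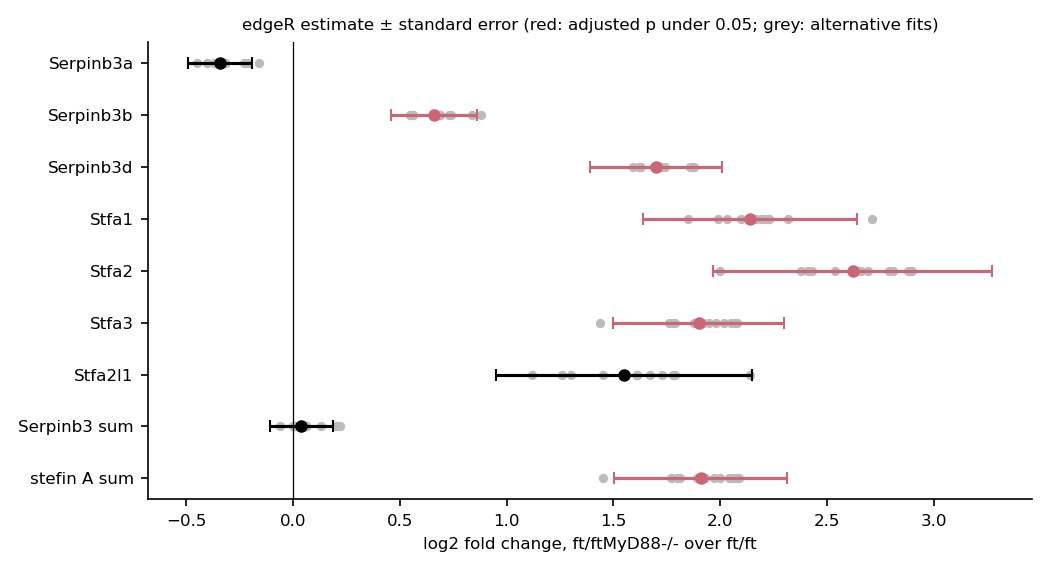
Log2 fold change of ft/ftMyD88-/- over ft/ft (x axis) for each gene and for the sums of both groups of genes, with bars for the standard error; red marks an adjusted p under 0.05 and grey points are the alternative fits. Serpinb3a and the Serpinb3 sum lie at -0.34 and 0.04, and the grey points of the 5 called genes lie to the right of 0.

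Divided by the exonic length of the gene models, levels can be set side by side. In ft/ft skin Stfa3 at 162 ± 38.3 CPM per kb and Serpinb3a at 146 ± 29.1 CPM per kb were the highest members and overlapped over their libraries (113 to 202 and 112 to 182 CPM per kb). Serpinb3b followed at 60.0 ± 18.4 CPM per kb, below both without overlap (46.2 to 85.6 CPM per kb). The other 4 members lay far lower, between a mean of 0.147 CPM per kb for Stfa1 and 2.01 CPM per kb for Stfa2. In ft/ftMyD88-/- skin Stfa3 stood alone at 605 ± 344 CPM per kb, its lowest library at 388 CPM per kb. Serpinb3a at 116 ± 17.5 CPM per kb and Serpinb3b at 95 ± 16.6 CPM per kb then overlapped (91.8 to 132 and 80.6 to 118 CPM per kb), and Stfa2 had reached 12.9 ± 9.85 CPM per kb (SD, n = 4 each).

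The libraries did not rank alike for all members. The ft/ftMyD88-/- replicate 4 was highest for Serpinb3b, Serpinb3d, Stfa2 and Stfa3, but replicate 2 was highest for Serpinb3a, Stfa1 and Stfa2l1. Among the ft/ft libraries, replicate 3 was lowest for Serpinb3b, Serpinb3d, Stfa2, Stfa3 and Stfa2l1. Among all other genes with a mean of at least 50 counts, those whose log2 CPM followed a member most closely over the 8 libraries were searched by the root mean squared difference after centring. For Serpinb3a these were Dsc2 (desmocollin 2, a desmosomal cadherin; 0.0804), Tmem176a (0.0999) and Ngfr (a neurotrophin receptor; 0.104). For Serpinb3b they were Abhd12b (0.135), Il1f9 (interleukin-36 gamma; 0.136) and Incenp (a mitotic chromosomal passenger protein; 0.139). For Stfa3 they were Lce3f (a late cornified envelope protein; 0.304), Epgn (epigen, a ligand of the epidermal growth factor receptor; 0.317) and Fhl2 (0.333), and for Stfa2 they were Lpo (lactoperoxidase; 0.343), Il1f6 (interleukin-36 alpha; 0.473) and Lce3e (0.514). The measure was taken over 13504 genes and the same 8 libraries in 2 groups, so it is a description of likeness in log2 units and carries no test.

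Marker genes of the cell types that skin around the eye can hold were read beside these values. Of 12 neutrophil markers, 10 had a row, 9 were tested, 5 were higher and none was lower, with a median log2 fold change of 1.66. Ly6g and Retnlg had no row and Ngp, a defining granule gene, had 0 to 2 counts per library. The sum of the 9 tested genes was 56 to 144 CPM in ft/ft libraries and 62.2 to 400 CPM in ft/ftMyD88-/- libraries, and most of it was Ltf, which glands around the eye also make. Without Ltf, and with the few counts of Ngp, the sum of 9 genes was 14.7, 31.8, 19.7 and 17.9 CPM in the ft/ft libraries and 37.6, 60.3, 27.6 and 37.6 CPM in the ft/ftMyD88-/- libraries. Replicate 2 had the highest marker sum at 60.3 CPM and replicate 4 the highest Stfa3 at 459 CPM. Whether Stfa3 followed the markers was not tested. Much of this sum was Cxcr2, a chemokine receptor, which did not pass the test (log2 fold change 0.28, adjusted p = 0.383). Without Ltf and Cxcr2, a choice made after seeing the data, the 8 remaining genes summed to 2.57, 10.4, 3.74 and 3.64 CPM in ft/ft and 17.5, 34.7, 14.3 and 19 CPM in ft/ftMyD88-/-, and the groups did not overlap. The lowest sum of its group, with or without Cxcr2, was that of ft/ftMyD88-/- replicate 3. In it, Clec4d at 4.93 CPM, Trem1 at 2.14 CPM, Fpr1 at 0.238 CPM and Fpr2 at 0.714 CPM were each above every ft/ft library. So were Camp and Ngp, on 3 and 2 counts. Csf3r at 5.95 CPM, Mmp8 at 0.17 CPM and Cxcr2 at 13.2 CPM lay within the ft/ft range, and Ltf at 34.7 CPM lay below every ft/ft library. Stfa3 at 160 CPM and Stfa2 at 2.55 CPM were above every ft/ft library there. In bulk skin, more cells of a type and more RNA per cell cannot be told apart.

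Among 5 macrophage markers 1, Lyz2 (lysozyme 2), was higher, and their sum was 434 to 553 CPM in ft/ft libraries and 609 to 873 CPM in ft/ftMyD88-/- libraries. The gap came from Lyz2 (243 to 273 and 401 to 647 CPM): the other 4 genes summed to 191 to 280 and 208 to 303 CPM and overlapped, and Csf1r (-0.21), Cd68 (-0.11) and Adgre1 (-0.03) had log2 fold changes below 0 that did not pass the test. Keratinocyte genes of thickened epidermis had a sum of 2970, 3650, 3090 and 2800 CPM in ft/ft and 4080, 5140, 3310 and 5700 CPM in ft/ftMyD88-/-. Of the 6, 1 passed the test, Sprr1b (a cornified envelope precursor, log2 fold change 3.19, adjusted p = 0.0174). Most of the sum was Krt17 (means of 2210 and 2740 CPM, adjusted p = 0.068). Krt16 went from a mean of 104 to 626 CPM with no overlap and fell just short of the threshold (log2 fold change 2.58, adjusted p = 0.053). Krt6a, Krt6b and Sprr2d overlapped and did not pass. Krt16 and Krt17 are named outside the rule for named genes. Of 6 markers of differentiated keratinocytes 4 were lower (sums of 16100 to 21400 and 11700 to 14500 CPM), and of 5 basal markers 4 were lower (9400 to 12100 and 7850 to 9730 CPM). All 5 skeletal muscle markers were lower (7070 to 9540 and 2750 to 5100 CPM), and of 9 markers of conjunctival and mucosal epithelium 2, Krt8 and Krt13, were lower (1520 to 3000 and 1110 to 2110 CPM). The keratinocyte genes mark the labelled tissue as skin in all 8 libraries. The part of these marker differences in the values of the inhibitors was not tested.

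**Figure D4:**
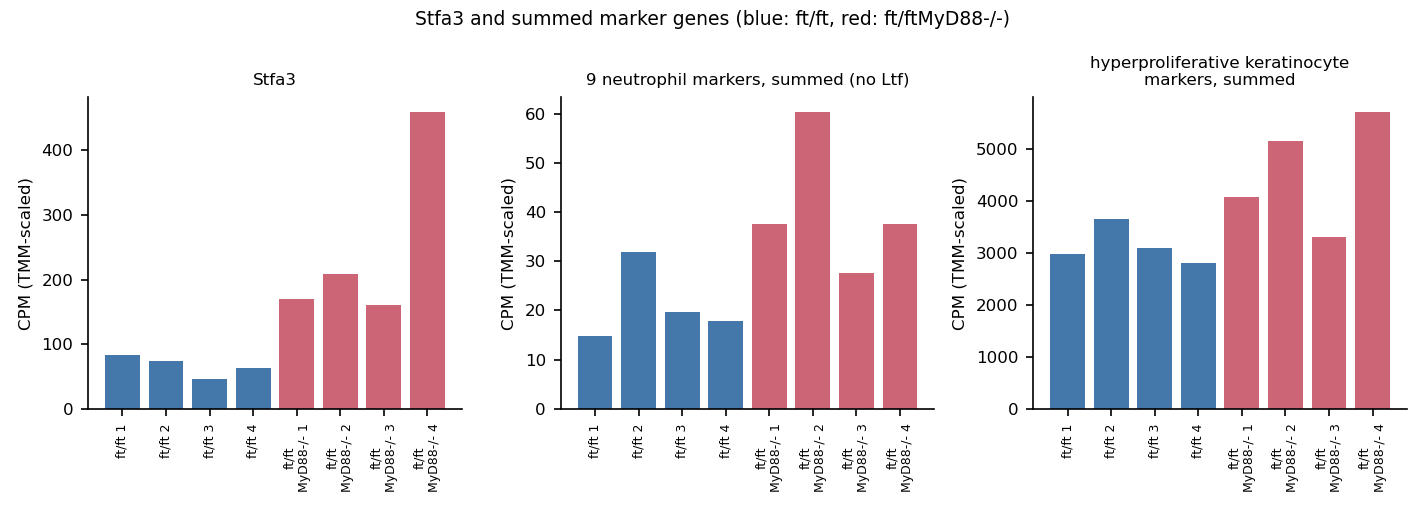
CPM (TMM-scaled, bars from 0) in each library of Stfa3, of 9 neutrophil markers summed without Ltf, and of 6 keratinocyte genes of thickened epidermis summed. Most of the keratinocyte sum is Krt17. Stfa3 at 459 CPM and the keratinocyte sum at 5700 CPM are highest in ft/ftMyD88-/- replicate 4. The neutrophil markers, of which Cxcr2 is a large part, are highest in replicate 2 at 60.3 CPM.

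The genes related to both families were read from lists fixed by family and locus. Of the 8 other clade B serpins of the chromosome 1 cluster, which flank the Serpinb3 genes, 1 was higher, 1 was lower and 6 did not pass, with a median log2 fold change of 0.02. Serpinb12, an epithelial inhibitor of trypsin-like proteases, rose from 76.8 ± 20.3 to 146 ± 39.7 CPM (log2 fold change 0.93, SE 0.219, adjusted p = 0.0155). Serpinb7, whose loss causes a palmoplantar keratoderma in people, fell from 143 ± 37.8 to 45.3 ± 12.1 CPM (-1.66, SE 0.226, adjusted p = 0.00126). On chromosome 13, 15 clade B serpins were listed and 10 tested, of which 1 was lower: Serpinb6d fell from 607 ± 160 to 102 ± 30.5 CPM (-2.58, SE 0.251, adjusted p = 0.000246; SD, n = 4 each). The median there was -0.32.

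Of 14 other stefins and cystatins, 5 had a row, and 1 passed: Cst3, the secreted cystatin C, fell from 765 ± 59 to 569 ± 76.6 CPM (log2 fold change -0.43, SE 0.112, adjusted p = 0.0174). Named outside the rule for named genes, Csta1, another stefin A, had 99.6 and 87.9 CPM (adjusted p = 0.598), and Cstb, the stefin B gene, had 312 and 385 CPM (adjusted p = 0.113). The main known targets of stefins are cysteine cathepsins. Of the 10 measured, edgeR called 0 higher (0 at an unadjusted p under 0.05) and 1, Ctsf, was lower (94 ± 5.08 to 52.7 ± 2.21 CPM, log2 fold change -0.84, SE 0.0784, adjusted p = 5.26e-05; SD, n = 4 each), and the median was -0.03. Lgmn (legumain), a cysteine protease of another family, was on the same list and is left out of these counts. It had a log2 fold change of 0.44 (edgeR unadjusted p = 0.0498, adjusted p = 0.135). The 0 at an unadjusted p under 0.05 thus holds only without Lgmn. With it, the list of 11 genes had a median of 0, and edgeR again called 0 higher at the adjusted p. Also outside the rule for named genes, Ctsl, a known target of both inhibitor groups, had a log2 fold change of 0.14 (adjusted p = 0.396), and Ctss one of 0.26 (adjusted p = 0.156).

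Of 7 serine proteases of granulocytes and mast cells, 1 was higher, Ctsg (cathepsin G, log2 fold change 2.20, adjusted p = 0.0174), and 1 was lower, Prtn3 (proteinase 3, -0.97, adjusted p = 0.0367), both named after their values were seen. Both rest on few counts, with means of 6.4 counts per library for Ctsg and 27.1 for Prtn3. Other protease inhibitors of skin went mostly down: of 9 listed 8 were tested, 5 were lower and 1 was higher, with a median of -0.48. Serpina12 (vaspin, an inhibitor of kallikrein 7) fell from 178 ± 34.6 to 55.7 ± 13.2 CPM (-1.67, SE 0.182, adjusted p = 0.000241). Spink5, the gene of the kallikrein inhibitor LEKTI, fell from 1220 ± 152 to 693 ± 66.7 CPM (-0.82, SE 0.115, adjusted p = 0.000572; SD, n = 4 each), and Wfdc5 fell by 0.60 on the log2 scale (adjusted p = 0.00432). Wfdc21 and Spint2 were the other two called lower, and Wfdc12, with a mean of 13.6 counts, was the gene called higher (2.94, adjusted p = 0.00602), all 3 named after their values were seen. The difference between these lists and the Serpinb3 and stefin A genes was not tested.

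**Figure D5:**
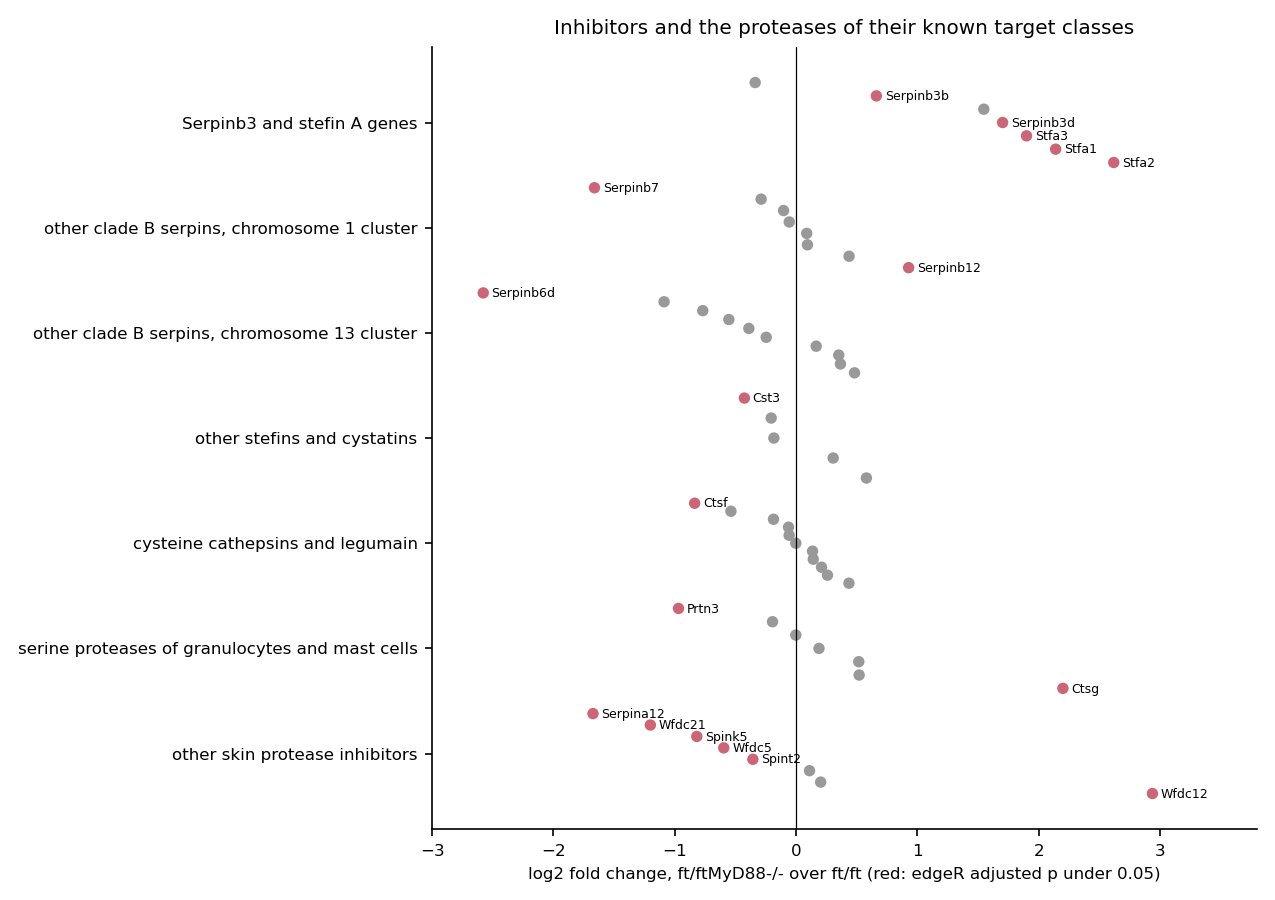
Log2 fold change of ft/ftMyD88-/- over ft/ft (x axis) for every tested gene of each list, 1 point a gene, in red with its name where the edgeR adjusted p was under 0.05. The Serpinb3 and stefin A genes run from -0.34 to 2.62, and the cysteine cathepsins from -0.84 to 0.26, with legumain at 0.44.

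Promoters are shown for the pair of serpins whose ratio shifted and for Stfa3, which carried most counts of the 4 Stfa rows. Each is the 250 bases before the RefSeq start, on the strand of the gene (RefSeq, GRCm38.p6). Capitals mark the TATAAA box in the serpins and, in Stfa3, a run of 15 bases that all 4 Stfa promoters share. The windows are chr1:107052304-107052553 for Serpinb3a, chr1:107161115-107161364 for Serpinb3b and chr16:36455393-36455642 for Stfa3, all on the minus strand and outside annotated exons; that of Serpinb3b lies inside the longer GENCODE model of the gene.
Serpinb3a: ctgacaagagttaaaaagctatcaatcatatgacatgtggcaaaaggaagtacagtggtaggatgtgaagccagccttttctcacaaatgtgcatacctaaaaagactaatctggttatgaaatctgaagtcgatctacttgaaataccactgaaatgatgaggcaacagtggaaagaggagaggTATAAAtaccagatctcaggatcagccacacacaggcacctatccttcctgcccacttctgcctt
Serpinb3b: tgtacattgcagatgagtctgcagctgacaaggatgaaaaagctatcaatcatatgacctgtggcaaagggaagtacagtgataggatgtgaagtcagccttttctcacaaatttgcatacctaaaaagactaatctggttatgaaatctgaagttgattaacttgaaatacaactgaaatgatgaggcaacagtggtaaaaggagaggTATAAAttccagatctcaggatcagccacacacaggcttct
Stfa3: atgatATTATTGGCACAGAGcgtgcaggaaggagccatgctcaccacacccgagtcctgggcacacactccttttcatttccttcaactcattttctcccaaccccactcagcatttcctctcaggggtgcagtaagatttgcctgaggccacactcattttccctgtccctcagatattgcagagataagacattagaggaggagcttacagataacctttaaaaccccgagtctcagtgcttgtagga

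The Serpinb3a and Serpinb3b windows were 77.0% identical over the alignment, with the box 65 and 41 bases before the start. Pairs of stefin A windows were 80.2% to 89.4% identical. TATAAA was found on either strand in 4 of the 8 members' windows, those of the Serpinb3 genes, beside 12.4% of 32851 promoters of this length. The NF-kB letters, GGG and TTTCC with NN between (1.41% of promoters), the AP-1 letters TGANTCA (6.75%) and the STAT letters TTCNNNGAA (7.02%) were found in 0 of 8. The C/EBP letters TTGCNNAA were found in 2, Serpinb3d and Stfa1, beside 9.56% of promoters. All motifs were searched on both strands, and each match is a match of letters only.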

How the data were processed

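RNA from periocular skin of 4 ft/ft and 4 ft/ftMyD88-/- mice was sequenced from polyA-selected libraries read for 50 cycles from a single end. By their methods, the authors used HISAT and tophat2 for alignment, with GRCm38.p6 as reference, and name HTSeq at default settings for comparing the groups; the counting tool, versions, annotation release and strand were not given in the sources used here, and the labels name Cell Ranger and a fixed-tissue protocol. The authors deposited raw counts per gene in a table that held no other sample's values. Of the 12 samples in the labels, 4 wild-type samples were not analysed here, and neither were comparisons with them.

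Members and lists were chosen with earlier results of these data known. Genes whose counts over the 8 libraries summed to 10 or more entered edgeR 4.0.16 in R 4.3.3 (TMM, glmQLFit with robust = TRUE, glmQLFTest, Benjamini-Hochberg, adjusted p under 0.05), fitting the 8 libraries without covariates. Named genes were all members, up to 3 genes in each direction of each other list with the smallest adjusted p and a mean of at least 50 counts, the 3 nearest profiles of each member with that mean, and Myd88, Flg and Tmem79. Sums replaced a family's rows by their total, and means were compared by two-sided exact permutation over 70 splits. Alternatives were DESeq2 1.42.0, limma 3.58.1 (voom), RLE or no scaling factors, other filters and thresholds, the replicate number as a block, and each library left out; leaving out libraries for the Serpinb3b to Serpinb3a ratio was added after seeing the data. On simulated counts for this comparison, 200 of 200 genes changed 4-fold were recovered among 20201 tested, with 9 false calls. This does not mean that every 4-fold change in the data would be called. Sprr2d, with a wide spread, had a log2 fold change of 1.99 and an edgeR adjusted p of 0.245. The same replicate number in both groups did not pair libraries. No 2 libraries of a group agreed within sampling noise (chi-square per degree of freedom 16.3 or more). Intervals and floors cover counting error only.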

Additional observations from a re-analysis of the deposited data

Results flagged for a closer look

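In ft/ftMyD88-/- replicate 4, Stfa3 stood at 459 CPM while the other 3 libraries of the group had 160 to 208 CPM, and the gap to the nearest library took up 0.839 of the group's whole range, above the 95% critical value of Dixon's test for 4 samples. The sum of the 4 stefin A rows was flagged by the same library for the same reason, at 474 CPM against 163 to 213 CPM (0.838 of the range), and since Stfa3 makes up nearly all of that sum, both flags are a single finding. Chance flags about 1 in 20 groups. Without this library the log2 fold change was 1.44 for Stfa3 (adjusted p = 0.00161, edgeR) and 1.45 for the sum, against 1.90 and 1.91 with it.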

How the results depend on the processing

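Over the alternatives, Serpinb3d, Stfa1 and Stfa3 kept their direction and their call in all 15 fits (log2 fold changes of 1.59 to 1.88, 1.85 to 2.71 and 1.44 to 2.08). The number of members called higher was 5, 6 with library size alone, 4 when a log2 fold change of 1 or more was also required, and 2 at an adjusted p under 0.01 (Serpinb3d and Stfa1). With a library left out it ranged from 3 to 5, with 3 without ft/ft replicate 3 or ft/ft replicate 4, and the number called lower ranged from 0 to 1, the 1 being Serpinb3a without ft/ft replicate 4. The Serpinb3 sum ranged from -0.06 to 0.20 with a library left out and was reversed, at -0.06, without ft/ft replicate 4. The stefin A sum ranged from 1.45 to 2.09, and its call was lost without ft/ft replicate 4 (1.89, adjusted p = 0.0507). The causes were not tested. Stfa2l1 was removed by edgeR's own expression filter and has 14 fits. The count of all genes called was 4764 with edgeR, 5624 with DESeq2, 4701 with limma voom and 5964 with library size alone.

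The replicate numbers did not pair the libraries: same-numbered deviations from the group means correlated at -0.15, 0.03, 0.01 and -0.02, and 1 of 4 ft/ft libraries correlated best with its own number. With the replicate block 5 members were called higher and 0 lower, the same ones, and 4039 of all genes were called. The block gave 0.69 for Serpinb3b, 1.74 for Serpinb3d, 2.19 for Stfa1, 2.54 for Stfa2 and 1.78 for Stfa3. Depth limits Serpinb3d, Stfa1 and Stfa2l1, which rest on few counts per library.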
